A study of Gallus gallus with 14 samples.

Results

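Long-DF and short-DF hens of the JF prefix were compared for the long noncoding RNAs (lncRNAs) of the uterovaginal junction (UVJ), where DF is the duration of fertility after insemination. The comparison used the fragment counts of 6 hens, namely the long-DF hens JF25, JF61 and JF64 and the short-DF hens JF21, JF40 and JF56. A lncRNA entered it with an FPKM (fragment count scaled by transcript length and by the size of the library) of at least 0.1 in at least 3 of these 6 hens. In total, 7169 of the 9977 lncRNAs in the table met this rule, of which 5099 were known lncRNAs of public databases and 2070 were unknown lncRNAs assembled by the authors from these libraries. The study sequenced 14 egg-type hens, with 1 library per hen and no pooling, and the other 8 hens carried the prefix JH, with 4 hens per DF group. All hens were caged singly and were inseminated with pooled sperm, and neither a treatment nor an engineered allele separated the groups. The labels and the paper give neither the meaning of the prefixes nor the kinship of the hens. The paper gives an age in weeks at which the trial feeding began and an approximate upper age of the fertility records, the same for all hens, but no age for each hen at sampling. The labelled tissue could not be checked against protein-coding markers, because the table holds lncRNAs alone.

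The UVJ is the stretch of the hen's oviduct where the vagina meets the uterus, and its mucosal folds contain the sperm storage tubules. These are blind-ended glands in which sperm remain viable after mating or insemination and from which they are released, so that a hen goes on laying fertile eggs without a new insemination. LncRNAs are transcripts without a recognised protein-coding frame, and many lie between genes or on the opposite strand of one. A lncRNA locus often gives several transcripts that differ in their start or in their splicing and share much of their sequence. Fragments from the shared bases cannot be assigned to 1 transcript with certainty, and neither the labels nor the paper state how the authors' counting divided them.

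The fragments counted on lncRNAs numbered 253077, 266624 and 222814 in the long-DF JF hens, against 218627, 245503 and 231516 in the short-DF JF hens. The means were 247505 ± 22430 in long-DF and 231882 ± 13442 in short-DF JF hens (SD, n = 3 each, two-sided exact permutation test, p = 0.4). With 3 hens against 3, no p under 0.1 can be reached. At this depth a count of 0 in a hen allows up to 3 fragments, which was 0.00113% to 0.00137% of a hen's lncRNA fragments and covers counting error only. The number of lncRNAs with an FPKM above 0 was 7055, 7038 and 7036 in long-DF hens, against 6881, 7177 and 7024 in short-DF hens (exact permutation test, p = 0.7). The number with an FPKM of at least 1 was 3182, 3131 and 3199 in long-DF hens, against 3291, 3406 and 3345 in short-DF hens. These values did not overlap, and the exact permutation p was 0.1, the smallest possible. The library total behind the FPKM was 8035660 ± 606320 fragments in long-DF and 7203370 ± 296827 in short-DF JF hens (SD, n = 3 each, exact permutation test, p = 0.2), and its part in that difference was not tested. Pairs of JF hens were about equally alike within and between the groups. Across lncRNAs, Pearson's r of log2(FPKM + 0.1) lay between 0.858 and 0.880 for the 3 long-DF pairs, between 0.862 and 0.868 for the 3 short-DF pairs and between 0.852 and 0.881 for the 9 mixed pairs. These values are a description, since lncRNAs are not independent replicates.

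Most of the tested lncRNAs were sparse. A fragment in all 6 hens was counted for 4805 of the 7169, and at least 10 fragments in all 6 hens for 1646. Another 97 had no fragment in any hen of 1 group, of which 51 were at 0 in the long-DF hens and 46 at 0 in the short-DF hens. Of the 2808 lncRNAs outside the rule, 693 had no fragment in the 6 JF hens. Just inside the rule stood MSTRG.24229.11 and NONGGAT002691.2, whose FPKM in the hen that decided the rule, the next below the 2 highest, were 0.100002 and 0.100427, and just outside it NONGGAT013691.1 and NONGGAT000905.2 with 0.0997 and 0.0999.

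Between the JF groups, 3 of the 7169 lncRNAs were called, which is 0.0418%. A lncRNA was called where edgeR's quasi-likelihood test gave an adjusted p no larger than 0.05 (Benjamini-Hochberg, over all 7169), an unadjusted p no larger than 0.01 and a log2 fold change of 2 or more in size. MSTRG.838.2 and MSTRG.838.3, which are 2 transcripts of the same locus on chromosome 1, were higher in long-DF hens (0.0279%), and NONGGAT003450.2 on chromosome 19 was lower (0.0139%). MSTRG.838.2 and MSTRG.838.3 met the rule only through the long-DF hens, so their presence there is not a result. An unadjusted p under 0.05 was reached by 277 lncRNAs (3.86%), with 124 higher (1.73%) and 153 lower (2.13%) in long-DF hens. When the library totals behind the FPKM were used for scaling, this split became 69 higher and 202 lower, and limma on log2(FPKM + 0.1) gave 137 higher and 279 lower. The median log2 fold change of all tested lncRNAs was -0.06 in the main scaling and -0.13 with the library totals. The values of the 3 long-DF hens lay wholly above or below those of the 3 short-DF hens for 696 lncRNAs (9.71%). Of these, 311 were above (4.34%) and 385 below (5.37%). With 3 hens against 3, unrelated labels would separate values without ties at a rate of 0.1, so this share is not a result by itself. The biological coefficient of variation between hens of a group was 0.400.

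**Figure D1:**
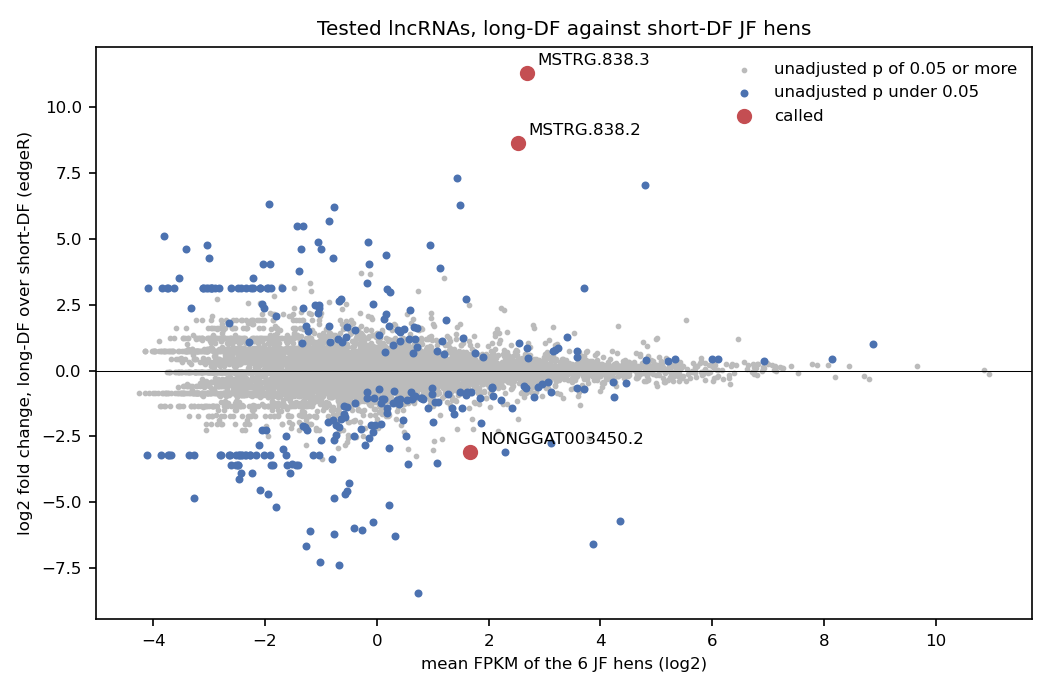
Fitted log2 fold change of long-DF over short-DF JF hens (vertical axis) against the log2 of the mean FPKM of the 6 JF hens (horizontal axis) for the tested lncRNAs, 1 point each, with called lncRNAs in red and those with an unadjusted p under 0.05 in blue. The called MSTRG.838.2 and MSTRG.838.3 stand at the top, NONGGAT003450.2 lies at -3.10, and the spread of the points is widest at low FPKM, where the horizontal rows of points are lncRNAs with very few fragments.

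The locus on chromosome 1 (Galgal4, 45396836 to 45405884) held 6 lncRNA transcripts, of which 3 were unknown ones of the forward strand and 3 were known ones joined to them by overlap alone. MSTRG.838.2, a transcript of 5023 nt from 45400352 to 45405478, had 405, 456 and 526 fragments in the long-DF hens, against 1, 1 and 1 in the short-DF hens. The fitted log2 fold change was 8.63 (standard error 0.29, adjusted p = 0.000236 in edgeR). The ratio of the summed counts was 440 with an exact 95% counting interval from 150 to 2135, which leaves out the spread between hens. DESeq2 gave a log2 fold change of 8.81 with a standard error of 0.88. The edgeR standard error, taken from the F statistic, thus understates the uncertainty at 1 fragment per short-DF hen. In FPKM it averaged 11.5 ± 2.18 in long-DF and 0.0277 ± 0.00112 in short-DF hens (SD, n = 3 each). The groups were far apart and the hens within each were close together. MSTRG.838.3, of 3098 nt from 45400764 to 45405478, had 299, 309 and 344 fragments in long-DF hens, against 0 in each short-DF hen. In long-DF hens it was at least 101-fold higher, computed at a floor of 3 fragments per short-DF library, and its adjusted p in edgeR was 0.0117. In bulk tissue, more cells of a type and more RNA per cell cannot be told apart. The paper reports more sperm storage tubules in UVJ sections of long-DF than of short-DF hens, without the prefixes of those hens. Whether this bears on the counts was not tested. MSTRG.838.3 averaged 12.8 ± 1.82 FPKM in long-DF hens (SD, n = 3) and was 0 in the short-DF hens. With 1 of the long-DF hens JF25, JF61 or JF64 left out, the adjusted p of MSTRG.838.3 was between 0.0829 and 0.138, and the call was lost. That of MSTRG.838.2 was kept without any 1 of the 6 hens, but was lost, at an adjusted p of 0.992, where all 14 hens shared one edgeR fit.

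The remaining unknown transcript of the locus went the other way. MSTRG.838.1, of 6985 nt from 45396836 to 45405478, had 0, 23 and 24 fragments in long-DF hens, against 1099, 1575 and 1690 in short-DF hens. The log2 fold change was -6.58 (standard error 1.02, unadjusted p = 0.000474, adjusted p = 0.283 in edgeR), so that it was not called. It was called by DESeq2 (adjusted p = 0.000217), by limma on log2(FPKM + 0.1) (adjusted p = 0.0322) and in edgeR without JF25 (adjusted p = 0.00517). JF25 was at 0 while JF61 and JF64 were not, and no long-DF hen came near a short-DF hen. MSTRG.838.2 and MSTRG.838.3 together took 100%, 97.1% and 97.3% of the fragments of the 3 unknown transcripts in long-DF hens, against 0.0909%, 0.0635% and 0.0591% in short-DF hens. Summed over all 6 transcripts, the locus had 752, 850 and 935 fragments in long-DF hens, against 1172, 1656 and 1775 in short-DF hens. The sum was thus lower in every long-DF hen, by a fitted log2 value of -0.91 (standard error 0.19, unadjusted p = 0.00164, adjusted p = 0.986 in edgeR), and the locus was not called.

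The exons of the 3 transcripts overlap heavily. MSTRG.838.1 has exons of 4006 and 2979 nt, MSTRG.838.2 of 490 and 4533 nt, and MSTRG.838.3 of 119 and 2979 nt. The last exon ends at 45405478 in all 3, and that of MSTRG.838.1 and MSTRG.838.3 is the same, from 45402500. The first exon of MSTRG.838.2 ends at 45400841, as does that of MSTRG.838.1. The bases that belong to no other of the 3 number 3516 in MSTRG.838.1 and 1554 in MSTRG.838.2, against 41 in MSTRG.838.3, 98.7% of which is shared. The 3 known transcripts of the locus were much lower. NONGGAT000319.2 had 39, 50 and 33 fragments in long-DF hens, against 54, 65 and 68 in short-DF hens (log2 fold change -0.70, standard error 0.19, unadjusted p = 0.00962 in edgeR). NONGGAT000318.2 had 7, 9 and 5 in long-DF hens, against 15, 10 and 13 in short-DF hens. NONGGAT000320.2 had 2 or 3 fragments in each long-DF hen, against 3 to 5 in short-DF hens. The authors' annotation classes MSTRG.838.1, MSTRG.838.2 and MSTRG.838.3 as antisense to an exon of NONGGAT000320.2. That class places NONGGAT000320.2 on the opposite strand, so that the sum over the locus combines both strands. The annotation itself gives no strand or exons of the known transcripts, and the strands of NONGGAT000318.2 and NONGGAT000319.2 are not known. Over the 3 unknown transcripts alone, the sums were 704, 788 and 894 fragments in long-DF hens, against 1100, 1576 and 1691 in short-DF hens.

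**Figure D2:**
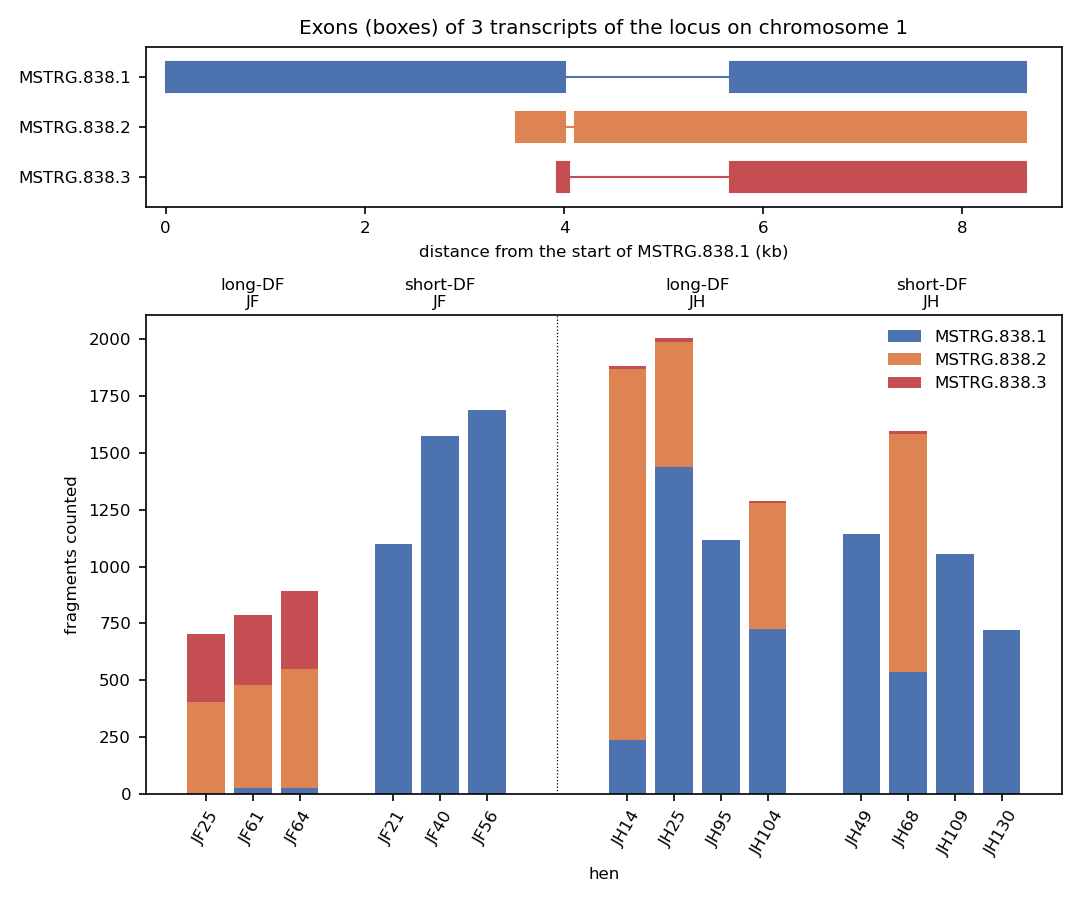
Upper panel, exons (boxes) and introns (lines) of MSTRG.838.1, MSTRG.838.2 and MSTRG.838.3 against the distance in kb from the start of MSTRG.838.1. Lower panel, fragments counted on each transcript (stacked bars) in each of the 14 hens, where long-DF JF hens carry 100%, 97.1% and 97.3% on MSTRG.838.2 and MSTRG.838.3 and short-DF JF hens almost all on MSTRG.838.1, while JH hens range from 0% to 87.5% and hold 0 to 19 fragments on MSTRG.838.3.

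In the 8 JH hens, which the JF comparison did not use, the same transcripts did not separate the DF groups. MSTRG.838.2 had 1636, 552, 0 and 556 fragments in the long-DF JH hens, against 0, 1049, 0 and 0 in the short-DF JH hens. MSTRG.838.3 had 11, 19, 0 and 8 in long-DF JH hens, against 0, 10, 0 and 0 in short-DF JH hens. MSTRG.838.1 had 235, 1437, 1117 and 724 in long-DF JH hens, against 1142, 536, 1057 and 719 in short-DF JH hens. The long-DF hen JH95 thus resembled the short-DF JF hens, and the short-DF hen JH68 carried 66.4% of the 3 transcripts' fragments on MSTRG.838.2 and MSTRG.838.3. The log2 fold changes in JH hens were 1.58 for MSTRG.838.2, 1.89 for MSTRG.838.3 and -0.07 for MSTRG.838.1 (unadjusted p = 0.479, 0.153 and 0.888 in edgeR). MSTRG.838.3 was also scarcer in JH hens, with 8 to 19 fragments in those hens that had 552 to 1636 on MSTRG.838.2.

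NONGGAT003450.2, a known lncRNA of 2519 nt on chromosome 19 from 4852563 to 4864111, was the lncRNA called lower. It had 16, 12 and 10 fragments in long-DF hens, against 92, 129 and 93 in short-DF hens. It averaged 0.626 ± 0.146 FPKM in long-DF and 5.74 ± 0.907 FPKM in short-DF hens (SD, n = 3 each). The groups did not overlap, and the log2 fold change was -3.10 (standard error 0.24, adjusted p = 0.0166 in edgeR). The call was lost with any 1 of the 6 hens JF25, JF61, JF64, JF21, JF40 or JF56 left out, at log2 fold changes between -3.29 and -2.99 and adjusted p values between 0.0551 and 0.165. The locus holds a second known transcript, NONGGAT013677.1 of 427 nt from 4851642 to 4881067, which had 6, 7 and 8 fragments in long-DF hens, against 1, 0 and 1 in short-DF hens (log2 fold change 3.11, standard error 0.62, unadjusted p = 0.00191, adjusted p = 0.623 in edgeR). Summed over both, the locus had 22, 19 and 18 fragments in long-DF hens, against 93, 129 and 94 in short-DF hens. The fitted log2 fold change was -2.47 (standard error 0.20, adjusted p = 0.0122 in edgeR). It was the only locus called of the 5403 tested (0.0185%), and that call too was lost without any 1 of the 6 hens.

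The chromosome 19 locus showed the same 2 patterns in the JH hens, again without following the DF groups. NONGGAT003450.2 had 16, 119, 14 and 142 fragments in long-DF JH hens, against 199, 13, 145 and 92 in short-DF JH hens (log2 fold change -0.73, unadjusted p = 0.45 in edgeR). NONGGAT013677.1 had 12, 1, 11 and 0 in long-DF JH hens, against 1, 11, 0 and 1 in short-DF JH hens. Each of the 14 hens with 6 to 12 fragments on NONGGAT013677.1 had 10 to 16 on NONGGAT003450.2, and each of those with 0 or 1 on the first had 92 to 199 on the second.

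On chromosome 8, NONGGAT009044.2 stood just outside the threshold. This known lncRNA of 2660 nt, from 24645563 to 24663216, had 40, 42 and 28 fragments in long-DF hens, against 3, 2 and 1 in short-DF hens. The fitted log2 fold change was 4.03 (standard error 0.39, adjusted p = 0.0519 in edgeR), and the count ratio was 17.4 with a counting interval from 7.76 to 48.6. That interval leaves out the spread between hens. NONGGAT009046.2, of 2442 nt at the same locus, had the opposite pattern, with 0, 1 and 0 fragments in long-DF hens, against 33, 21 and 32 in short-DF hens (log2 fold change -6.06, standard error 0.70, adjusted p = 0.0997 in edgeR, but 0.000779 in DESeq2). NONGGAT009046.2 met the rule only through the short-DF hens, so its presence there is not a result. Another transcript, NONGGAT009043.2, had 17 fragments in the short-DF hen JF40 and 0 or 1 in each other JF hen. The sum of the 4 transcripts of the locus did not separate the groups, with 41, 43 and 28 fragments in long-DF hens, against 37, 40 and 34 in short-DF hens (log2 fold change -0.06, standard error 0.20, unadjusted p = 0.801 in edgeR). NONGGAT009044.2 made up 97.6%, 97.7% and 100% of that sum in long-DF hens, against 8.11%, 5.0% and 2.94% in short-DF hens.

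In JH hens NONGGAT009044.2 had 1, 67, 2 and 31 fragments in the long-DF group, against 41, 39, 25 and 23 in the short-DF group. The short-DF JH hens were thus like the long-DF JF hens at this locus. The long-DF JH group was split, since JH95 had 35 fragments on NONGGAT009046.2 and JH14 had 59 on a transcript that is near 0 in all other hens, NONGGAT009045.2. The log2 fold change of NONGGAT009044.2 in JH hens was -0.43 (unadjusted p = 0.655 in edgeR).

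**Figure D3:**
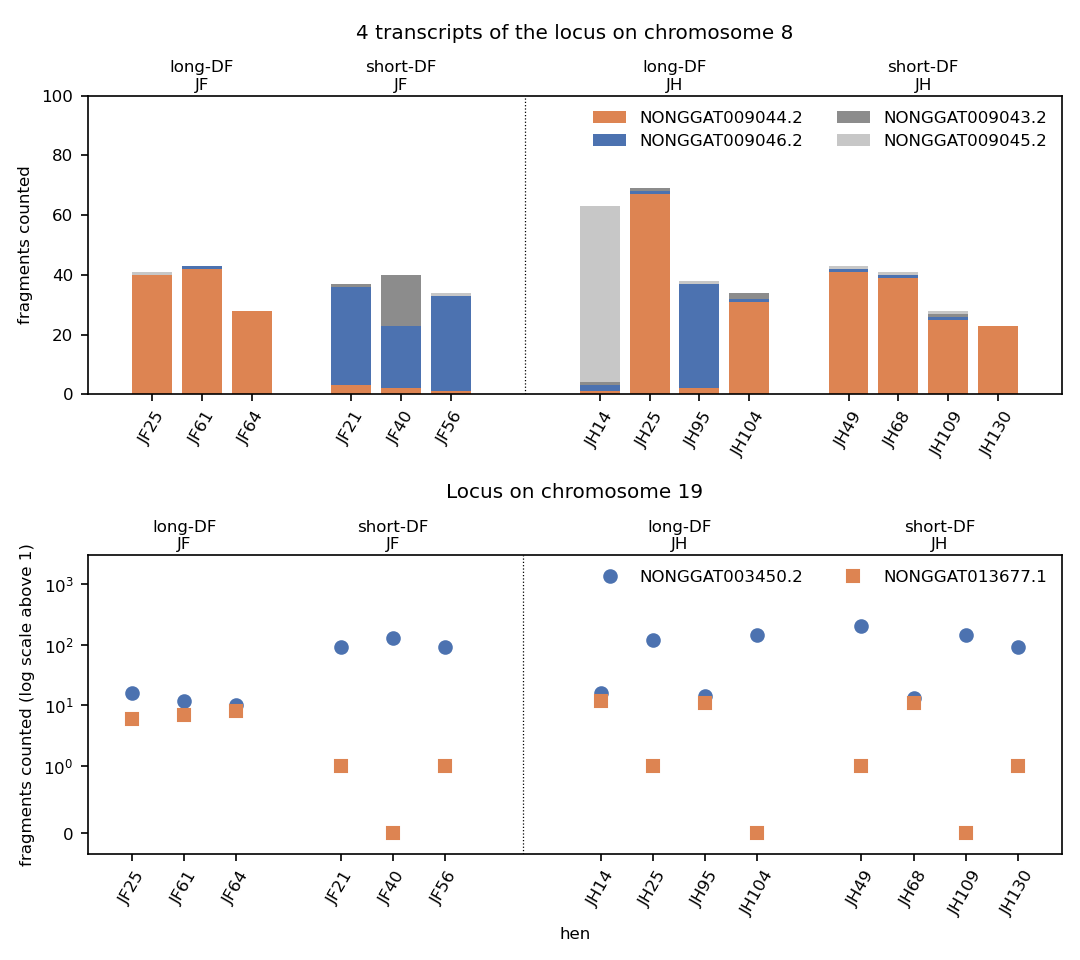
Fragments counted in each of the 14 hens on the 4 transcripts of the chromosome 8 locus (upper panel, stacked bars, linear axis) and on the 2 transcripts of the chromosome 19 locus (lower panel, points, log axis above 1). The chromosome 8 sums are alike in the JF groups, with 28 to 43 per long-DF hen and 34 to 40 per short-DF hen, while the transcript that carries them differs, and NONGGAT003450.2 is at 10 to 16 in the long-DF JF hens and 92 to 129 in the short-DF JF hens.

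Several further lncRNAs were counted in every hen of 1 JF group and at 0 in every hen of the other, without reaching the threshold in edgeR. Such lncRNAs meet the rule only through the group where they are counted, so their presence there is not a result. Other tools differed on these, since DESeq2 called NONGGAT004914.2, NONGGAT007176.2, NONGGAT008511.2 and MSTRG.6835.6 (adjusted p from 0.000395 to 0.0199) and limma on log2(FPKM + 0.1) called these 4 as well as NONGGAT004913.2, NONGGAT003200.2 and MSTRG.6489.4 (adjusted p from 0.0023 to 0.0488). NONGGAT004914.2 on chromosome 21 had 0 in each long-DF hen, against 18, 21 and 22 fragments in short-DF hens. It was at least 7.13-fold lower in long-DF hens (adjusted p = 0.0997 in edgeR), and it was at 0 in all 8 JH hens as well. The overlapping NONGGAT004913.2 had 5, 7 and 7 fragments in long-DF hens, against 0 in each short-DF hen, which is at least 2.01-fold higher, and 4 to 9 in every JH hen. Their sum was 5, 7 and 7 fragments in long-DF hens, against 18, 21 and 22 in short-DF hens, and edgeR fitted it at -1.72 on the log2 scale (standard error 0.27, unadjusted p = 0.000234, adjusted p = 0.634). At this locus the short-DF JF hens, and not the long-DF ones, stood apart from the other hens.

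NONGGAT007176.2 on chromosome 4 had 17, 24 and 20 fragments in long-DF hens, against 0 in each short-DF hen. It was at least 6.45-fold higher, with an adjusted p of 0.117 in edgeR, and had no more than 1 fragment in any JH hen. Its neighbour NONGGAT007175.2 had 6, 4 and 5 fragments in long-DF hens, against 9, 9 and 12 in short-DF hens, and their sum was fitted at 1.27 on the log2 scale (standard error 0.25, unadjusted p = 0.00104 in edgeR). NONGGAT008511.2 on chromosome 7 had 0 in each long-DF hen, against 17, 19 and 19 fragments in short-DF hens, at least 6.42-fold lower (adjusted p = 0.0997 in edgeR). In JH hens it had 16 fragments in the long-DF hen JH104 and 34 in the short-DF hen JH130. NONGGAT003200.2 on chromosome 17, with 10, 11 and 9 fragments in long-DF hens, against 0 in short-DF hens, was at least 3.17-fold higher, with an adjusted p of 0.213 in edgeR. On chromosome 14, MSTRG.6489.4 had 11, 10 and 7 fragments in long-DF hens, against 0 in short-DF hens, and MSTRG.6835.6 had 0 in long-DF hens, against 12, 11 and 13 in short-DF hens. All 2008 bases of MSTRG.6835.6 are also in exons of MSTRG.6835.2, a longer transcript of its locus, and the locus sums were 197, 207 and 195 in long-DF hens, against 198, 194 and 209 in short-DF hens.

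In some loci the sum did not follow the transcript. MSTRG.28829.2, of 1726 nt on an unplaced scaffold, had 0 in each long-DF hen, against 64, 15 and 44 fragments in short-DF hens. On the counts as assigned it was at least 14.4-fold lower (adjusted p = 0.606 in edgeR, but 6.89e-05 in DESeq2). Of its bases, 95.5% are also in exons of MSTRG.28829.3, so this fold does not bound the difference in its abundance. In JH hens it had 9 to 271 fragments in the long-DF group, against 35 to 236 in the short-DF group. The 5 transcripts of its locus summed to 498, 506 and 313 fragments in long-DF hens, against 192, 163 and 190 in short-DF hens, which edgeR fitted at 1.18 on the log2 scale (standard error 0.21, unadjusted p = 0.00052). Most of that sum lay on MSTRG.28829.4 in JF25 and JF61 and on MSTRG.28829.3 in JF64, so that hens of the same group differed in the transcript counted. MSTRG.15070.6 on chromosome 3 had 2, 0 and 0 fragments in long-DF hens, against 33, 115 and 32 in short-DF hens (log2 fold change -6.27, standard error 0.99, adjusted p = 0.289 in edgeR, but 0.000217 in DESeq2). It is 1 of 19 transcripts of its locus, whose sums were 136, 158 and 234 in long-DF hens, against 157, 357 and 292 in short-DF hens, and overlapped. MSTRG.30180.2 on chromosome Z, antisense to EPB41L4A, had 0 in long-DF hens, against 8, 7 and 4 fragments in short-DF hens. MSTRG.28829.2, MSTRG.15070.6 and MSTRG.30180.2 met the rule only through the short-DF hens, so their presence there is not a result.

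**Figure D4:**
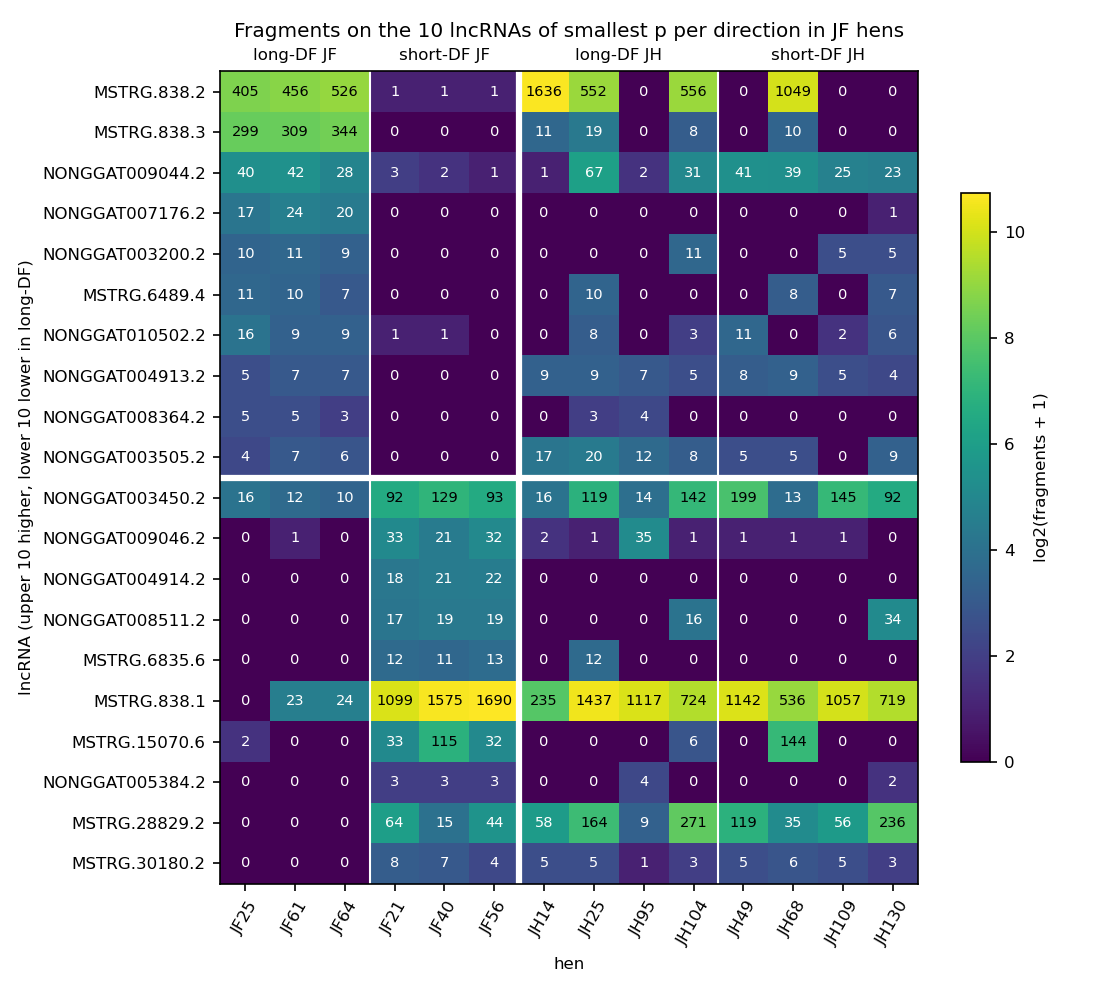
Fragments counted (numbers, colour on a log2(fragments + 1) scale) on the 10 lncRNAs of smallest p in each direction of the JF comparison, in rows, for each of the 14 hens, in columns grouped as long-DF JF, short-DF JF, long-DF JH and short-DF JH. The rows were chosen by their JF values, and 18 of the 20 have 3 or fewer fragments in each hen of 1 JF group, whereas in none of the 20 are the JH groups apart.

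These 20 lncRNAs, 10 with the smallest p in each direction, were chosen by their values in the JF hens, and the counts below are descriptions. Of the 20, 19 lay in a locus of 2 or more transcripts, from 15 loci, while 3185 of the 7169 tested lncRNAs did. All hens of 1 JF group had 3 or fewer fragments for 18 of the 20, a pattern that a minimum of 3 hens admits. The 20 came from 16 loci in all, and the summed count had an unadjusted p under 0.05 in 8 of these, where 4.0% of all tested loci did, 1.87% higher and 2.13% lower. Its sign was that of the transcript, with such a p, for 2 of the 10 higher and 5 of the 10 lower lncRNAs, and the opposite for MSTRG.838.2, MSTRG.838.3 and NONGGAT004913.2 among the higher and MSTRG.28829.2 among the lower. An exchange between transcripts that followed the JF groups was rare among the loci with enough fragments to examine. Exchanges between hens of the same group, as at the locus of MSTRG.28829.2, were not counted. Loci with fewer fragments were left out, such as that on chromosome 21. There NONGGAT004914.2 held 0% of the fragments in each long-DF hen and 100% in each short-DF hen. Among 465 loci of 2 or more transcripts with at least 20 fragments in every JF hen, the share of a transcript was apart by at least 50 percentage points between every long-DF and every short-DF hen in 2 (0.43%), the loci on chromosomes 1 and 8. At least 20 fragments in every hen of 1 group and 3 or fewer in every hen of the other were found for 5 lncRNAs (0.0697%), namely MSTRG.838.2, MSTRG.838.3, NONGGAT009044.2, NONGGAT009046.2 and MSTRG.15070.6.

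**Figure D5:**
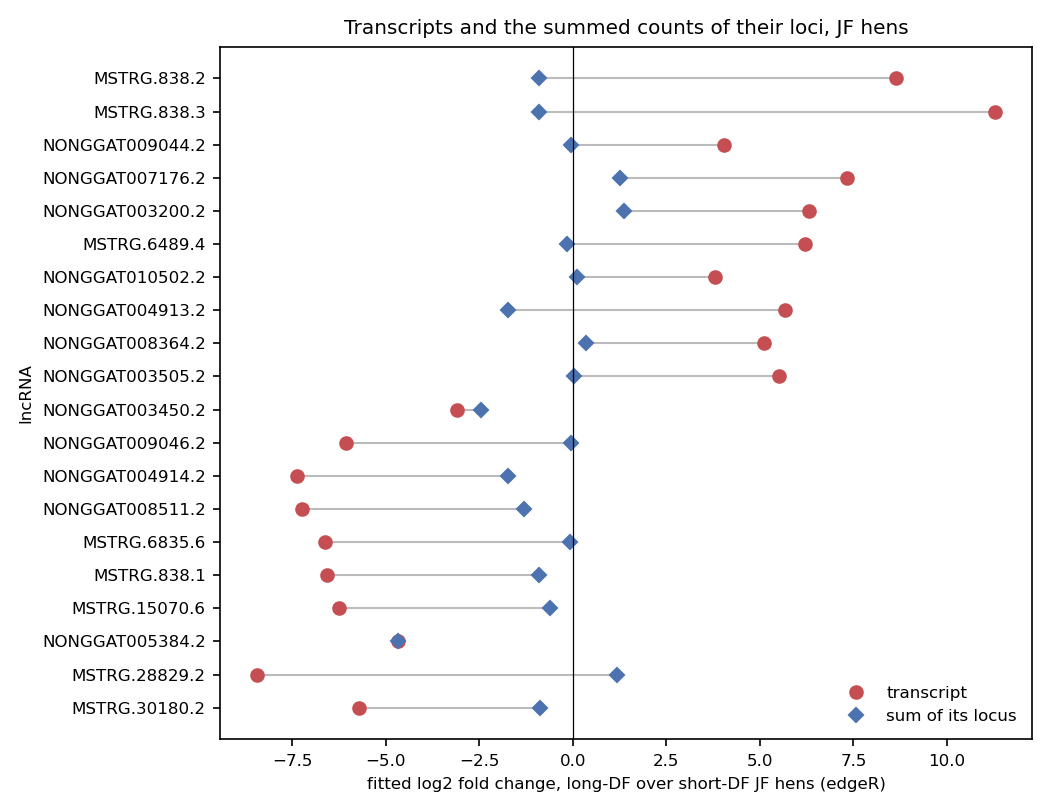
Fitted log2 fold change of long-DF over short-DF JF hens for each of the same 20 lncRNAs (red circles) and for the summed counts of its locus (blue diamonds), joined by a line. Locus values lie nearer to 0 than transcript values, except that they coincide for NONGGAT005384.2, the only transcript of its locus. They have the opposite sign for MSTRG.838.2, MSTRG.838.3, NONGGAT009044.2, MSTRG.6489.4, NONGGAT004913.2 and MSTRG.28829.2, and fitted values of transcripts at 0 in a group depend on the prior count.

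The classes of lncRNA were then set beside the 3.86% of all tested lncRNAs with an unadjusted p under 0.05 in edgeR. Among the 5099 known lncRNAs the share was 3.37% (172). Among unknown lncRNAs it was 4.75% (70) of 1473 intergenic ones, 5.30% (8) of 151 within an intron and 6.05% (27) of 446 antisense to an exon. Of the last, 72 were antisense to a known lncRNA, with 9 (12.5%), and 374 antisense to an Ensembl gene, with 18 (4.81%). The 9 include MSTRG.838.1, MSTRG.838.2 and MSTRG.838.3, which overlap at 1 locus and are not independent. LncRNAs that were the only transcript of their locus had a share of 2.91% (116 of 3984), and those with further transcripts 5.05% (161 of 3185), among them all 3 that were called. Over the 7169 tested lncRNAs the median absolute log2 fold change was 0.38, and it was 0.33 for the only transcript of a locus and 0.44 for the rest. These shares were not compared by a test, and the classes differ in level, with a median FPKM in long-DF hens of 0.587 for known and 1.39 for intergenic unknown lncRNAs.

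The fold changes were less spread out among more abundant lncRNAs. The median absolute log2 fold change was 0.61 for the 2469 lncRNAs with a mean FPKM under 0.5, 0.31 between 1 and 5 FPKM, and 0.17 for the 941 between 5 and 50 FPKM. Only 87 lncRNAs exceeded a mean of 50 FPKM and these held 34.8% of the fragments on lncRNAs. The groups did not overlap for 14 of the 87 (16.1%, beside 9.71% of all). The 5 most abundant lncRNAs took 16.2%, 12.7% and 12.3% of the lncRNA fragments in long-DF hens, against 13.8%, 12.3% and 14.9% in short-DF hens (exact permutation test, p = 0.9). MSTRG.27458.1, on an unplaced scaffold, averaged 1845 ± 185 FPKM in long-DF and 2137 ± 413 in short-DF hens (SD, n = 3 each). MSTRG.2200.16 on chromosome 1 averaged 1826 ± 387 FPKM in long-DF and 1901 ± 212 in short-DF hens (SD, n = 3 each). The groups overlapped for both, and likewise for NONGGAT007919.2 and MSTRG.27457.2. MSTRG.25803.1 had 901, 418 and 533 FPKM in long-DF hens, against 269, 263 and 434 in short-DF hens. The fitted log2 fold change was 1.02 (standard error 0.33, unadjusted p = 0.02, adjusted p = 0.986 in edgeR), and JF61 lay below the short-DF hen JF56.

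A list of genes known from sperm storage, oviduct function and the study's own targets was searched for unknown lncRNAs within them or antisense to them. Known lncRNAs were not searched, because the annotation assigns them no gene. The search found 10 such unknown lncRNAs at 5 genes, and 4 of the 10 were tested. It does not show that the other genes have no lncRNA. None of the 4 reached an unadjusted p under 0.05 in edgeR (0 of 4, beside 3.86% of all). MSTRG.23167.2, antisense to CLDN1, a tight junction protein, had 1907, 2450 and 1992 fragments in long-DF hens, against 2065, 2409 and 2600 in short-DF hens (log2 fold change -0.23, standard error 0.12, unadjusted p = 0.112 in edgeR). In JF64 alone a further 626 fragments were counted on MSTRG.23167.4 and 111 on MSTRG.23167.3, both at 0 in the other JF hens and outside the rule. MSTRG.23167.4 is among the key lncRNAs of the paper, which lists it as downregulated in long-DF hens. It had 0 fragments in each JH hen as well, so the long-DF hen JF64 was the only hen counted on it. Summed, the CLDN1 antisense locus had 1907, 2450 and 2729 fragments in long-DF hens, against 2065, 2409 and 2600 in short-DF hens (log2 fold change -0.05, unadjusted p = 0.801 in edgeR). The 2 unknown lncRNAs classed as antisense to SOX2, which encodes a transcription factor of stem and epithelial progenitor cells, were summed. They had 13, 28 and 22 fragments in long-DF hens, against 26, 49 and 46 in short-DF hens. The sum was fitted at -0.99 on the log2 scale (standard error 0.33, unadjusted p = 0.0176, adjusted p = 0.986 in edgeR), and JF61 lay above the short-DF hen JF21. MSTRG.14860.1, within an intron of TGFB2, a growth factor gene, had 3, 1 and 4 fragments in long-DF hens, against 2, 6 and 8 in short-DF hens. The 3 unknown lncRNAs at the prolactin receptor gene PRLR had 1 fragment in all in the 6 JF hens, in the short-DF hen JF40. That at CALB1, a calcium-binding protein gene of the eggshell gland, had 5 fragments in JF25 and none in the other JF hens.

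The 26 lncRNAs that the study set out by name were chosen on these libraries, so their values here are not independent evidence. Of them, 14 passed the rule, and 8 of the 26 had no JF hen above 3 fragments. An unadjusted p under 0.05 was reached by 4 of the 14 (28.6%, beside 3.86% of all tested), which were MSTRG.838.2, NONGGAT009046.2, MSTRG.15070.6 and MSTRG.26352.3. Each met the rule through the hens of the group where it was higher, so this share is not a result. MSTRG.26352.3 had 1, 0 and 0 fragments in long-DF hens, against 3, 4 and 37 in short-DF hens. The study also assayed 4 by qPCR. Which transcripts of a locus each assay reads was not checked here, and the primers are shown as given. All letters are lower case because no part of them stands out, and each runs 5′ to 3′.
MSTRG.28487.2 forward: ccctttgcacactcacaccct
MSTRG.28487.2 reverse: gagcgcaatgccttcgtctgc
MSTRG.8138.1 forward: agcttgtattcatagggcaca
MSTRG.8138.1 reverse: ttccaagcctgaactatttga
MSTRG.17455.2 forward: caatgacaatcgctgaccaac
MSTRG.17455.2 reverse: gccttgtacttttgataccact
MSTRG.2982.4 forward: ggtcccctctatagtaacgagt
MSTRG.2982.4 reverse: ttccgttcttgatcatctggga

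The paper reports MSTRG.28487.2 and MSTRG.17455.2 as lower in long-DF hens, and MSTRG.8138.1 and MSTRG.2982.4 as higher. It gives these directions for all sequenced hens together, and by qPCR on a separate set of replicates. None of these 4 separated the JF groups. The JF hens are only a part of the sequenced hens, so their values cannot decide that claim. MSTRG.28487.2, of 313 nt on an unplaced scaffold, had 486, 21 and 39 fragments in long-DF hens, against 108, 5 and 16 in short-DF hens (log2 fold change 1.93, standard error 1.49, unadjusted p = 0.238 in edgeR). MSTRG.8138.1 on chromosome 18 had 3, 8 and 53 fragments in long-DF hens, against 12, 8 and 56 in short-DF hens (log2 fold change -0.25, standard error 1.17, unadjusted p = 0.837 in edgeR). MSTRG.17455.2 on chromosome 4 had 2, 16 and 0 fragments in long-DF hens, against 0, 1 and 15 in short-DF hens. In each of these the ranges of the groups overlapped. Their fitted signs were opposite to the directions in the paper, for MSTRG.17455.2 at a log2 fold change of 0.03 (standard error 1.46). No direction was established for any of them in JF hens. In JH hens their fitted signs were those of the paper, at log2 fold changes of -1.66 for MSTRG.28487.2, 0.27 for MSTRG.8138.1 and -2.97 for MSTRG.17455.2. Unadjusted p in edgeR was 0.310, 0.746 and 0.00557, and none was called. MSTRG.17455.2 had 0, 0, 0 and 1 fragments in long-DF JH hens, against 4, 4, 2 and 1 in short-DF JH hens. For MSTRG.2982.4 the JH log2 fold change was -0.06 without the FPKM filter, opposite to the paper. The JF counts of MSTRG.2982.4 leaned the way the paper reports, through JF61 alone. MSTRG.2982.4 on chromosome 1 did not pass the rule, with 1, 12 and 1 fragments in long-DF JF hens, against 1, 1 and 0 in short-DF JF hens. In JH hens the same lncRNA had 1166, 1, 1614 and 674 fragments in the long-DF group, against 612, 1401, 436 and 1184 in the short-DF group. MSTRG.2982.4 was thus near the floor in JF hens of both DF groups and in JH25. Another transcript of its locus, MSTRG.2982.2, had 87 fragments in the short-DF hen JF40 and 0 in each other JF hen.

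The same contrast in the 8 JH hens gave 1 called lncRNA of the 7169 (0.0139%) and 287 with an unadjusted p under 0.05 (4.0%, of which 2.48% higher and 1.52% lower in long-DF hens) in edgeR. That lncRNA was NONGGAT008832.2 on chromosome 8, which in the JF hens had 0, 50 and 50 fragments in the long-DF group, against 47, 0 and 0 in the short-DF group. The JH call was lost without any 1 of the 8 JH hens except JH130, without which 3 were called. Groups that did not overlap were found for 187 lncRNAs (2.61%) in JH hens. Unrelated labels separate less often with 4 against 4 than with 3 against 3, so this share cannot be set against that of the JF hens. None of the 20 lncRNAs with the smallest p in JF hens was among the 187. Of the 20, 11 had the same sign in JH hens, beside 46.4% of all 7169, and NONGGAT009046.2 had an unadjusted p under 0.05 there, with the opposite sign (log2 fold change 3.51, unadjusted p = 0.0366 in edgeR).

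The difference between JF and JH hens in the effect of the DF group was tested as an interaction in edgeR. No lncRNA was called (0 of 7169, 0.0%), and 307 had an unadjusted p under 0.05 (4.28%, with the JF effect above the JH effect in 1.87% and below it in 2.41%). The smallest adjusted p among the 20 was that of NONGGAT004913.2 at 0.0508, followed by MSTRG.838.1 at 0.147. For MSTRG.838.3 the adjusted p was 0.879. A difference between the prefixes was thus not shown for the lncRNAs called in JF hens, and an absence of one was not shown either. Without JF25 the interaction was called for 2 lncRNAs, MSTRG.838.1 and NONGGAT001651.2, without JF21 for MSTRG.23016.12 and without JH49 for NONGGAT003266.2.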

How the data were processed

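Total RNA of the UVJ of 14 hens was sequenced as strand-specific paired libraries. The authors aligned the reads to Galgal4 with TopHat, assembled transcripts with StringTie and filtered them for lncRNAs. The deposited table holds fragment counts per lncRNA and hen, which entered the fits as given. They depend on how fragments of shared bases were divided between transcripts, which is not known. The table also holds FPKM values, which the authors scaled to length and library size. The counting tool is not given in the sources used here. Exons, strand and class came from the deposited annotation of the unknown lncRNAs, for all of which the deposited length equals the exon sum, and known lncRNAs have neither exons nor strand there.

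Groups came from the sample titles. Counts of the 6 JF hens were normalized by TMM, with factors from 0.979 to 1.03, and tested with edgeR 4.0.16 in R 4.3.3 (glmQLFit and glmQLFTest). The fit was also run on simulated data, where changes were placed only in lncRNAs with higher mean counts. That run does not cover the detection of changes in sparse lncRNAs, and no result here rests on it. Standard errors were taken from the fold change on the log2 scale and the F statistic. They can be too small where a group has few or no fragments. Ratios of summed counts carry exact conditional 95% intervals, which pool the fragments of a group and leave out the spread between hens. Where a group was at 0, a lower limit at 3 fragments per library is given, since fitted values then depend on the prior count. That limit covers counting error only, and not the division of shared fragments between transcripts. Loci are transcripts overlapping on the same strand where strand is known and on the genome where it is not (6970, of which 1583 hold 2 or more transcripts). Alternatives were DESeq2 1.42.0, limma 3.58.1, other scalings and filters, and each hen left out. Python 3.11.15, numpy 2.4.6, pandas 2.3.3, scipy 1.17.1 and matplotlib 3.10.9 were used for the rest.

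The lncRNAs named are those called, their loci, the 10 smallest p in each direction, and the 26 of the study. Also named are those with at least 20 fragments in every hen of 1 group and 3 or fewer in every hen of the other. The 5 most abundant and the unknown lncRNAs at a fixed gene list complete the set. The members and lists were chosen with earlier results of these data known. Primer sequences came from the study's supplementary table. No lncRNA sequence is shown, as no genome of the files' build was used here.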

Additional observations from a re-analysis of the deposited data

Results flagged for a closer look

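In 22 groups of 4 JH hens, over the lncRNAs of the JF loci described above, the highest or lowest hen was examined for a gap to the others above Dixon's 95% critical value. It was exceeded 8 times, in 6 lncRNAs that share loci and hens. The value is made for continuous measurements, where chance passes about 1 in 20 groups. That rate does not hold for these counts, since any count beside 3 hens at 0 passes, so the 8 are given as values only. The short-DF hen JH68 stood apart from the other short-DF JH hens with 1049 fragments on MSTRG.838.2 and 10 on MSTRG.838.3 (0 in each of the others), 11 on NONGGAT013677.1 (0 or 1 in the others) and 144 on MSTRG.15070.6 (0 in the others). The long-DF hen JH104 had 6 fragments on MSTRG.15070.6, with 0 in the other long-DF JH hens. The long-DF hen JH95 had 35 fragments on NONGGAT009046.2, with 2, 1 and 1 in the others. The short-DF hen JH130 had 0 fragments on NONGGAT009046.2, with 1 in each other short-DF JH hen, and 1 on NONGGAT007176.2, with 0 in the others, and these last gaps are of 1 fragment. Groups of 3 JF hens were not examined in this way.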

How the results depend on the processing

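The number of lncRNAs called in JF hens was 3 in edgeR, 12 with DESeq2 (4 higher, 8 lower), 26 with limma on log2(FPKM + 0.1) (13 higher, 13 lower), 5 with limma at a pseudocount of 1 and 5 at 0.01. It was 4 with an FPKM of at least 0.5, where NONGGAT009044.2 was added, as it was by DESeq2 and by limma at a pseudocount of 0.1. With all 14 hens sharing a dispersion fit it was 2, MSTRG.838.1 and NONGGAT004913.2, and none of the 3 was kept. With 1 hen left out it was between 1 and 3. Adjusted p over the alternatives ran from 5.76e-20 to 0.992 for MSTRG.838.2, from 2.12e-15 to 0.138 for MSTRG.838.3 and from 2.64e-12 to 0.992 for NONGGAT003450.2, and every alternative kept the sign of these 3. Leaving out 1 hen gave 0 to 0 called loci where 1 was called, 0 to 3 lncRNAs in JH hens where 1 was, and 0 to 2 for the difference between the prefixes where 0 were. The difference in the number of lncRNAs expressed, long-DF minus short-DF JF hens, was 15.7 at an FPKM above 0, -28.7 at 0.1 or more and -177 at 1 or more, and -57.5 to 90.5 with 1 hen left out. That in the percentage of fragments on the 5 most abundant lncRNAs was 0.071, and -1.14 to 0.777 with 1 hen left out. No paired analysis was possible because the hen numbers do not pair the groups.

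With 3 hens a group, low counts limit the comparison. Of the tested lncRNAs, 1646 of 7169 had 10 or more fragments in all 6 JF hens. Separate hens were sequenced once, so hen-to-hen and library-to-library spread cannot be told apart. How fragments of shared exons were divided between transcripts was not tested, and the calls on chromosome 1 rest on transcripts that share most of their bases.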
